A study of Mus musculus with 6 samples.

Results

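The 10 genes described here are regulators and target genes of the YAP/TEAD arm of the Hippo pathway, taken by symbol from the 47643 genes listed in each of 6 RNA-seq libraries of mouse ependymal cells. They are the co-activator genes Yap1 and Wwtr1 (which encodes TAZ), the transcription factor genes Tead1, Tead2 and Tead3, and 5 genes regarded as YAP/TEAD targets, Amotl1, Amotl2, Crim1, F3 and Fjx1. Ependymal cells are the multiciliated cells of the ventricle wall. In the cKO, Ccn1 was deleted in ependymal cells by tamoxifen-induced recombination in adult mice, and the same recombination turned on GFP. The control mice also received tamoxifen, and their GFP-labelled cells were sorted from the ventricular-subventricular zone in the same way, 2 days after the treatment. There were 3 cKO and 3 control libraries. No source used here names the driver of the recombinase, an age beyond "adult" or any pooling of animals, so p-values measure only the spread between these samples, which may be technical.

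In the Hippo pathway, a kinase cascade of STK3, STK4, LATS1 and LATS2 phosphorylates YAP and TAZ and holds them in the cytoplasm. Unphosphorylated YAP and TAZ enter the nucleus, where they have no DNA contact of their own and act through TEAD proteins, which bind DNA. Ccn1 is a classical target of this complex, and as the deleted gene it was left out of the set. Because YAP and TAZ are controlled mainly by phosphorylation, their mRNA levels do not measure their activity.

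TEAD proteins recognise the core letters GGAATG, and these were looked for on both strands (the opposite strand reads CATTCC) in RefSeq promoter windows of GRCm38.p6, from 250 bases before to 50 bases after a start site. Of the 10 genes, 8 had a window, and 5 of these 8 held the core (Yap1, Wwtr1, Tead3, Amotl2 and Crim1), against 16.6% of the 27025 genes with windows. A gene counted if any of its windows held the core, and Wwtr1 had 2 windows and Tead3 had 3. Counted by window, the share over all genes was 14.7%. AP-1 factors often bind beside TEAD, and a permissive search pattern for their sites, TGANTCA (N, any base), was used. It was found in 1 of the 8, F3, against 8.97% of all genes. The matches of F3 were TGAATCA and TGAGTCA. No window of the 8 genes held both motifs. The stretches below show the core, in capitals, in both co-activator genes and in 2 targets, and the pair of AP-1 matches before F3, the most abundant of the 10 genes; each is written on the strand of its gene. A match describes letters only and shows neither binding nor regulation.
Yap1, chr9:8004714-8004755, minus strand: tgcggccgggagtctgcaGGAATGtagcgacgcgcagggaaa
Wwtr1, chr3:57576023-57576064, minus strand: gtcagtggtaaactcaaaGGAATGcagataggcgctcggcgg
Amotl2, chr9:102717721-102717762, plus strand: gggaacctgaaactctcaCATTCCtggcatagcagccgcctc
Crim1, chr17:78200151-78200192, plus strand: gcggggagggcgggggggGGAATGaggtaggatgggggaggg
F3, chr3:121723373-121723426, plus strand: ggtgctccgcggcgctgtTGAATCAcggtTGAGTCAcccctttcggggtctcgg

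The libraries held 13401499 to 15689579 estimated counts. On the principal components, control 1 lay away from the rest on the first (29.2% of variance), as did control 3 on the second (21.9%). Ccn1 went with the labels, at 18.7, 11.6 and 23.7 TPM in the cKO libraries against 63.6, 98.7 and 93.5 TPM in the controls (TPM, the deposited level per transcript length and library size). Ependymal markers summed to 10324 to 10382 CPM (counts scaled by library size and composition) over cKO libraries, against 9653 to 12767 CPM over controls, with Rarres2 the highest. Of 8 endothelial markers, 7 were at 0 in every library and the list summed to at most 0.0744 CPM in a cKO library and 0.073 CPM in a control. Mural and fibroblast markers gave 17.7 to 27.3 CPM per cKO library and 7.37 to 11.8 CPM per control library, mostly Col1a2, with groups that did not overlap (exact two-sided permutation p = 0.1, the smallest that 3 against 3 allows, and 4 of 9 markers were at 0 throughout). Neuron and neuroblast markers spanned 0 to 15.7 CPM over cKO libraries, against 0 to 55.7 CPM over controls, and the highest of them on average, Tubb3, was at 0 in all 3 cKO libraries and in control 3.

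In each of the 10 genes the values of the cKO and control libraries overlapped, and no tested gene of the set was called. The fit covered 11574 genes, and 9 of the 10 passed its filter on low counts, Tead3 being left out. By edgeR's quasi-likelihood test with Benjamini-Hochberg adjustment 0 of these 9 were called at an adjusted p of 0.05, as were 0 of all genes tested (0%), and 0 of the 9 had an unadjusted p under 0.05, against 318 of all genes tested (2.75%). DESeq2 gave an adjusted p to 8 of the 9 and called 0, where it called 198 of 12133 genes (1.63%). Even the deleted gene, Ccn1, was thus not called by edgeR after adjustment (edgeR unadjusted p = 0.000415). DESeq2 did call Ccn1 (DESeq2 adjusted p = 4.15e-06). The cKO and control values of each of the 9 overlapped, whereas the groups did not overlap in 1113 of the 11574 genes (9.62%). Of the 9, 4 had a positive log2 difference (cKO over control) and 5 a negative one, with a median of -0.29 beside 0.004 for all genes tested. The 95% intervals were wide, so a difference of several-fold in either direction was not detectable for most of the set at this spread. In bulk samples, fewer cells of a type and less RNA per cell cannot be told apart.

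**Figure D1:**
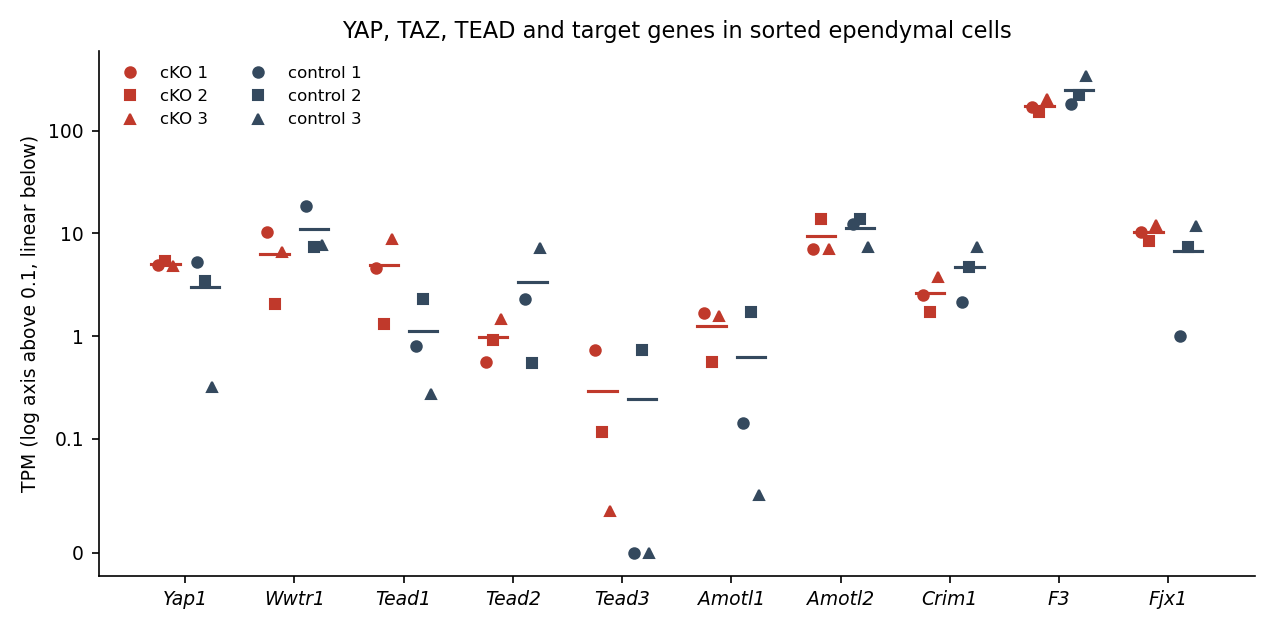
Deposited TPM of the 10 genes in each library (symbols, 1 per library; horizontal lines, group means; the axis is logarithmic above 0.1 and linear below). F3 lies between 151 and 344 TPM in all 6 libraries, apart from the other 9 genes, and the cKO and control points of each gene overlap.

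By mean TPM over the 6 libraries, F3 came first at 212 ± 69.2 TPM (SD, n = 6) and lay above 96.0% of all genes with a signal. Amotl2 followed at 10.2 ± 3.39, Wwtr1 at 8.70 ± 5.39 and Fjx1 at 8.48 ± 4.11 TPM. Yap1 stood at 4.01 ± 1.95, Crim1 at 3.69 ± 2.11, Tead1 at 3.03 ± 3.23 and Tead2 at 2.18 ± 2.57 TPM. Amotl1 averaged 0.949 ± 0.787 TPM and Tead3 0.270 ± 0.362 TPM. Only the step between F3 and Amotl2 was larger than the spread over libraries, since the 6 values of every other gene overlapped those of its neighbour in this order. Compared within each library, Amotl1 was also above Tead3 in all 6.

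Yap1 and Wwtr1 encode the paralogous co-activators YAP and TAZ, and both were expressed. Yap1 (ENSMUSG00000053110.13, chromosome 9, 7931999 to 8004596, minus strand, GRCm38) had 4.87, 5.43 and 4.82 TPM in the cKO libraries, against 5.24, 3.40 and 0.320 TPM in the controls. The cKO values were close together, control 1 fell among them, and control 3 was far below all others. That library held 17 counts of Yap1, where the cKO libraries held 238 to 249 and the other controls 302 and 156. The log2 difference was 0.72 ± 1.28 (SE), with a 95% interval from -2.25 to 3.68 (edgeR adjusted p = 1), and it ran from 0.18 without control 3 to 1.51 without control 1.

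Wwtr1 (ENSMUSG00000027803.14, chromosome 3, 57455649 to 57575910, minus strand) had 10.2, 2.03 and 6.55 TPM in the cKO and 18.3, 7.44 and 7.70 TPM in the control. Here cKO 2 was the lowest library and control 1 the highest, while the remaining values of both groups interleaved. The log2 difference was -0.86 ± 0.76 (95% interval -2.63 to 0.91, edgeR adjusted p = 1), and it ran from -1.40 without cKO 1 to -0.19 without control 1. The within-group SD of log2 CPM was 1.05 for Wwtr1 and 1.51 for Yap1, beside medians of 0.846 and 2.24 over the genes within 2-fold of the level of each.

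Which co-activator transcript was the more abundant per length varied from library to library. The ratio of Wwtr1 to Yap1 TPM was 2.10, 0.373 and 1.36 in cKO ependymal cells, against 3.48, 2.19 and 24.0 in control cells. Wwtr1 was thus above Yap1 in 5 of the 6 libraries, with cKO 2 the exception, and the value of 24.0 came from the low Yap1 of control 3. Each cKO ratio lay below each control ratio, by little between cKO 1 (2.10) and control 2 (2.19). Among single genes, 9.62% of all genes tested had groups that did not overlap, and no such share was computed for ratios. A difference in the ratio was not tested. The sum of both genes was 15.1, 7.46 and 11.4 TPM in the cKO and 23.5, 10.8 and 8.02 TPM in the control, groups that overlapped.

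The TEAD genes encode the DNA-binding partners, which share a conserved TEA domain. Tead1 (ENSMUSG00000055320.16, chromosome 7, 112679318 to 112906807, plus strand) had 4.65, 1.31 and 8.82 TPM in the cKO, against 0.798, 2.32 and 0.271 TPM in the control. The highest library, cKO 3, and the lowest, control 3, were 31.2-fold apart in CPM, and cKO 2 lay below control 2. The log2 difference of 1.69 ± 1.20 (95% interval -1.09 to 4.47, edgeR adjusted p = 1) became 0.27 without cKO 3 and 2.67 without control 2.

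Tead1 was also the 1 gene of the 10 whose TPM and counts went apart between libraries. In cKO 1, 165 counts stood for 4.65 TPM, whereas in cKO 2, 143 counts stood for 1.31 TPM. The counts per unit of TPM, relative to the library's median, were 1.83 in cKO 1 and 5.38 to 6.04 in the other 5 libraries, a 3.30-fold range. For each of the 9 other genes this range was at most 1.01-fold over the libraries with at least 10 counts, and it exceeded 2-fold in 0.454% of the 2204 genes with at least 50 CPM in every library. Tead1 has 15 transcripts in GENCODE M21, and the files do not show to which of them the counts were assigned. The level of Tead1 in cKO 1 is therefore less certain on the TPM scale than on the count scale.

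Tead2 (ENSMUSG00000030796.16, chromosome 7, 45215753 to 45233644, plus strand) had 0.560, 0.921 and 1.46 TPM in the cKO, against 2.32, 0.551 and 7.25 TPM in the control. All 3 cKO values and control 2 were low, and control 3 was the highest, with 182 counts against 12 to 64 in the other 5 libraries. The log2 difference was -1.76 ± 1.74 (95% interval -5.78 to 2.26, edgeR adjusted p = 1), and it ran from -2.26 without control 2 to -0.63 without control 3. A second row of the files that carries the symbol Tead2 held 0 counts in every library. Tead3 (ENSMUSG00000002249.17, chromosome 17, 28331671 to 28350817, minus strand) had 20, 3 and 1 counts in the cKO and 0, 19 and 0 in the control, at or near the detection floor of 3 counts in 4 of 6 libraries. Without the filter on low counts its edgeR adjusted p was 1. Tead4 had no count in any library.

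The makeup of TEAD transcripts varied widely among libraries of each genotype. Tead1 made up 78.3%, 55.8% and 85.5% of the summed TEAD TPM in the cKO libraries, against 25.6%, 64.3% and 3.60% in the controls. Tead2 made up 9.43%, 39.2% and 14.1% in the cKO and 74.4%, 15.3% and 96.4% in the control. The cKO 1 shares rest on the uncertain Tead1 TPM of that library. On the count scale, which is not per length, Tead1 made up 83.3%, 86.2% and 96.3% of TEAD counts in the cKO, against 63.3%, 89.1% and 15.7% in the control. Control 2 lay within the cKO range for both genes on both scales, so the groups overlapped. Tead2 held most of the TEAD TPM in control 1 and control 3, the libraries that stood apart over all genes, and most of the TEAD counts in control 3 alone. The part that these libraries' general difference has in this was not tested. Summed TEAD TPM, with the same limit for cKO 1, was 5.94, 2.35 and 10.3 in the cKO and 3.12, 3.61 and 7.52 in the control.

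**Figure D2:**
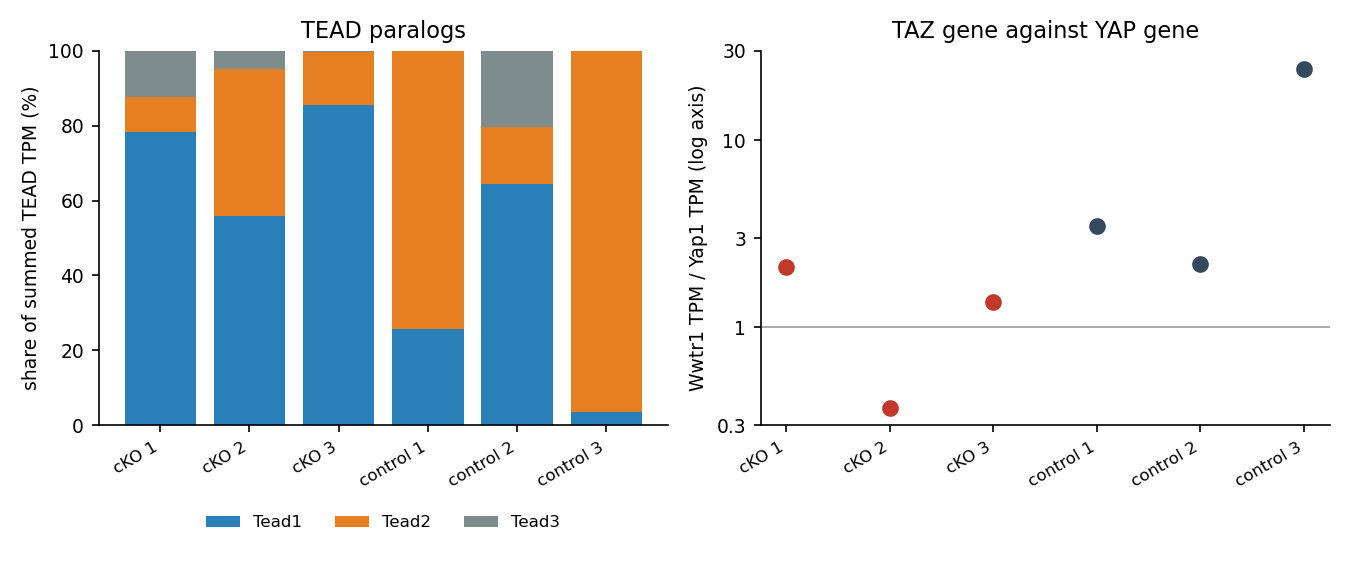
Left, share of the summed TEAD TPM held by each paralog in each library (bars add up to all TEAD transcripts; Tead4 was at 0). Right, Wwtr1 TPM divided by Yap1 TPM on a logarithmic axis, with a line where both are equal; Tead2 holds most of the TEAD TPM in control 1 and control 3, the Tead1 TPM of cKO 1 is uncertain, and control 3 has the highest ratio, 24.0.

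Amotl1 and Amotl2 are angiomotin-like genes, whose proteins bind YAP at cell junctions and restrain it while being targets themselves. Amotl1 (ENSMUSG00000013076.15, chromosome 9, 14541966 to 14645056, minus strand) had 1.68, 0.555 and 1.56 TPM in the cKO, against 0.142, 1.70 and 0.0507 TPM in the control. On the TPM scale control 2 and cKO 1 were nearly level at the top, and control 1 and control 3 were the lowest, at 18 and 6 counts. The log2 difference was 1.07 ± 1.83 (95% interval -3.16 to 5.31, edgeR adjusted p = 1), and it ran from 0.53 without control 3 to 3.67 without control 2.

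Amotl2 (ENSMUSG00000032531.15, chromosome 9, 102716672 to 102733418, plus strand) was among the steadier genes of the set. It had 7.12, 13.8 and 7.09 TPM in the cKO, against 12.4, 13.8 and 7.36 TPM in the control. Each genotype held a low level near 7 and a high level near 13 TPM, and highest and lowest library were 1.89-fold apart in CPM. The log2 difference was -0.29 ± 0.55 (95% interval -1.56 to 0.98, edgeR adjusted p = 1). Amotl2 exceeded Amotl1 in TPM in all 6 libraries, by 4.23-fold to 24.8-fold in the cKO and 8.11-fold to 145-fold in the control.

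F3 encodes tissue factor, the cell-surface receptor that starts the extrinsic pathway of blood coagulation and is known to be strongly expressed by astrocytes in the brain. F3 (ENSMUSG00000028128.13, chromosome 3, 121723537 to 121735048, plus strand) had 170, 151 and 204 TPM in the cKO libraries, against 183, 221 and 344 TPM in the controls. Control 3 was well above the others, the lowest values were cKO 2 and cKO 1, and cKO 3 exceeded control 1, so the groups overlapped. With 2847 to 7502 counts a library, F3 had the narrowest interval of the set, with a log2 difference of -0.49 ± 0.25 from -1.08 to 0.09 (unadjusted p = 0.0884, edgeR adjusted p = 1). The difference ran from -0.64 without cKO 3 to -0.22 without control 3. Its within-group SD of log2 CPM, 0.338, was near the median of 0.301 over the 1037 genes within 2-fold of its level.

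F3 is set here beside 8 markers of astrocytes and neural stem cells, of which 0 were at 0. Their summed level was 4472, 4643 and 5325 CPM over cKO libraries, against 4992, 5363 and 6148 CPM over controls (exact two-sided permutation p = 0.2). On the same CPM scale F3 reached 248, 212 and 304 in cKO cells, against 290, 305 and 479 in control cells. In both, control 3 was highest, and cKO 1 and cKO 2 were lowest, though cKO 1 was the lowest for the markers and cKO 2 for F3. Control 1, cKO 3 and control 2 followed each other in the same order between them. In F3, cKO 3 and control 2 were nearly level, at 304 and 305 CPM. Gja1, the highest marker of the list, did not follow this order, at 1779, 1607 and 1910 CPM in cKO cells, against 1977, 1858 and 1708 CPM in control cells. Ependymal cells share some of these markers, and the part of the list in the level of F3 was not tested.

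**Figure D3:**
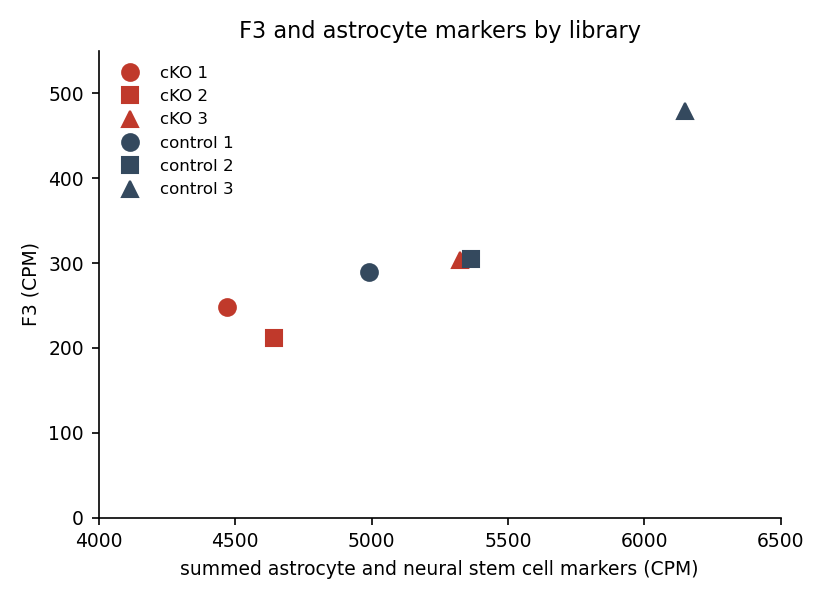
F3 (vertical axis, CPM) against the summed CPM of 8 astrocyte and neural stem cell markers (horizontal axis, not starting at 0) in each of the 6 libraries. Control 3 lies highest on both axes, and cKO 1 and cKO 2 lie lowest.

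Crim1, which encodes a transmembrane protein that binds BMPs, is the next target (ENSMUSG00000024074.7, chromosome 17, 78200248 to 78376592, plus strand). It had 2.50, 1.70 and 3.72 TPM in the cKO, against 2.14, 4.72 and 7.36 TPM in the control. Control 1 fell within the cKO values and the other controls above them. Its log2 difference was -0.80 ± 0.91 (95% interval -2.89 to 1.29, edgeR adjusted p = 1), and it ran from -1.16 without cKO 3 to -0.36 without control 3. Fjx1, the mouse homologue of Drosophila four-jointed, a kinase of planar cell polarity in the fly, is a gene of chromosome 2 (ENSMUSG00000075012.4, 102449366 to 102452499, minus strand). It had 10.2, 8.35 and 12.1 TPM in the cKO, against 1.0, 7.38 and 11.8 TPM in the control. A single library, control 1, was far below the rest, with 43 counts against 250 to 461 in the other 5. The fitted log2 difference was 0.66 ± 0.96 (95% interval -1.56 to 2.88, edgeR adjusted p = 1), and it ran from 0.17 without control 1 to 1.34 without control 3.

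**Figure D4:**
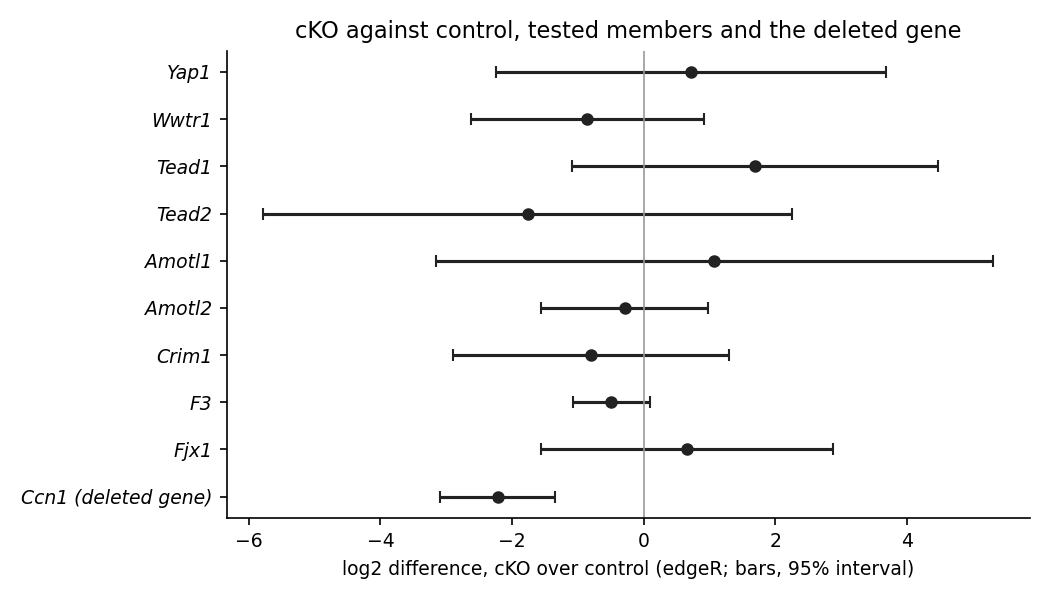
log2 difference of cKO over control with its 95% interval (edgeR) for the 9 tested genes and for Ccn1, the deleted gene. The intervals of all 9 include 0, the narrowest being F3 from -1.08 to 0.09, while that of Ccn1 runs from -3.10 to -1.34. The intervals are not adjusted for the number of genes tested, and edgeR did not call Ccn1 after adjustment.

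The libraries took unequal parts in these spreads, counted here in CPM. Control 3 was the highest or lowest library in 7 of the 9 tested genes, highest for Crim1, F3 and Tead2 and lowest for Amotl1, Amotl2, Tead1 and Yap1, where it was at an extreme in 33.9% of all genes tested. Control 1 was at an extreme in 4 of the 9 (Wwtr1, Yap1 and Amotl2 highest, Fjx1 lowest), against 44.7% of all genes. Among the cKO libraries, cKO 2 was lowest for Crim1, F3 and Wwtr1, cKO 3 highest for Fjx1 and Tead1, and cKO 1 highest for Amotl1. Over all genes tested, cKO 2 was at an extreme in 26.9%, cKO 3 in 33.4% and cKO 1 in 33.8%. In TPM, where some of these values are nearly level, control 3 was at an extreme in 6 of the 9 (not for Amotl2) and control 1 in 2 (Wwtr1 and Fjx1). Without control 3, 0 of the 10 genes were called, nor were any without control 1 (edgeR).

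The genes whose pattern over the 6 libraries was most like that of F3, by mean absolute difference of log2 CPM after centring among the 3479 genes that averaged 50 CPM or more, were Ckap5 (0.0888), Wbscr22 (0.0944) and Tex9 (0.108), beside a median of 0.436. These genes were picked for the smallest differences, so their place below the median follows from the choice.

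Upstream of YAP, transcripts of the Hippo kinases and their adaptors were present, and none was called. Of 8 listed genes, 7 were tested, 3 with a positive and 4 with a negative log2 difference (median -0.24). Stk3, which encodes the kinase MST2, was the most abundant at 6.73, 26.3 and 15.7 TPM in the cKO and 25.1, 15.7 and 38.4 TPM in the control. Stk4, the MST1 gene, had 5.62, 0.494 and 3.23 TPM in the cKO and 0.174, 2.13 and 0.0767 TPM in the control. Lats2, a YAP kinase gene and itself a target, ranged from 0.344 to 8.98 TPM in the cKO and 1.45 to 23.1 TPM in the control. Mob1a, the gene of a LATS co-activator, ranged from 1.59 to 9.28 TPM in the cKO and 3.79 to 17.2 TPM in the control. In all 4 genes the groups overlapped. The groups of Sav1, a scaffold of the kinases that was below the filter, did not overlap, at 3, 0 and 1 counts in the cKO and 22, 8 and 49 in the control, and this gene was named after its values were seen (edgeR adjusted p = 0.805 without the filter, DESeq2 adjusted p = 0.473). Its cKO counts were at or below the detection floor of 3 counts. The share of genes below the filter with such groups was not computed.

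Among 19 genes of further upstream regulators, 17 were tested, 11 with a positive and 6 with a negative log2 difference (median 0.07), and 0 were called. Wwc1, which encodes the apical Hippo activator KIBRA, was the highest by mean TPM and ran from 21.4 to 32.4 TPM in the cKO and 16.6 to 34.2 TPM in the control (log2 difference 0.05, 95% interval -0.74 to 0.85). Rassf1 stood at 15.2, 30.5 and 0 TPM in the cKO and 41.5, 7.17 and 0 TPM in the control, so 1 library of each genotype listed it at 0. The casein kinase gene Csnk1e ranged from 11.3 to 19.6 TPM in the cKO and 5.51 to 33.9 TPM in the control. The kinase gene Taok1 ran from 3.92 to 10.2 TPM in the cKO and 3.07 to 8.45 TPM in the control. Vgll4, whose protein competes with YAP for TEAD, was the one gene with counts among 5 listed TEAD and cofactor genes outside the set. It was steady, at 37.3, 32.2 and 28.7 TPM in the cKO and 28.9, 42.0 and 30.7 TPM in the control (log2 difference -0.04, 95% interval -0.92 to 0.83), and Tead4 and Vgll1 were at 0 counts throughout. Vgll4 was above the summed TEAD TPM in all 6 libraries.

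The remaining targets were taken from a YAP/TAZ signature known from human cancers, without Ccn1 and the members. Of 17 such genes, 13 had a count and 9 were tested, 6 with a positive and 3 with a negative log2 difference (median 0.45), and 0 were called by edgeR. Groups did not overlap in 3 of these 9 (Asap1, Arhgef17 and Tgfb2), where 9.62% of all genes tested had such groups, and they went in both directions. These 3 were the only such genes among all 32 tested listed genes outside the set. Asap1, an ARF GTPase-activating protein gene, had 6.86, 4.01 and 3.77 TPM in the cKO, against 1.65, 0.516 and 0.944 TPM in the control, a log2 difference of 2.12 with an interval from -0.96 to 5.21. Tgfb2, a TGF-beta ligand gene, had 4.67, 7.36 and 8.26 TPM in the cKO, against 9.66, 11.2 and 14.1 TPM in the control, a log2 difference of -0.66 with an interval from -1.97 to 0.66. The secreted matrix gene Ccdc80 was the most abundant of them, at 45.6, 33.1 and 23.6 TPM in the cKO and 29.2, 29.2 and 12.4 TPM in the control. Gadd45a, a growth arrest gene, ranged from 0 to 29.1 TPM in the cKO and 13.7 to 36.6 TPM in the control. Mural and fibroblast markers, at sums of 17.7 to 27.3 CPM per cKO library and 7.37 to 11.8 CPM per control library, were also higher in each cKO library than in any control, and their part in these values was not tested.

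A few further targets of this list, like Arhgef17 above, are given here after their values were seen. Ankrd1 had no count in any library, and Ccn2 (listed as Ctgf) had 1, 149 and 0 counts in the cKO and 0, 151 and 0 in the control. Nuak2, a kinase gene below the filter, had 1, 161 and 156 counts in the cKO and 0, 0 and 1 in the control, so that cKO 1 was at the level of control 3. DESeq2 called Nuak2 (adjusted p = 0.0329), and edgeR without the filter did not (adjusted p = 0.622). This was the 1 DESeq2 call among 34 listed genes outside the set with a DESeq2 adjusted p, where DESeq2 called 1.63% of all genes. Over all 47 listed genes outside the set, 32 were tested, with 19 positive and 13 negative log2 differences and a median of 0.06.

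**Figure D5:**
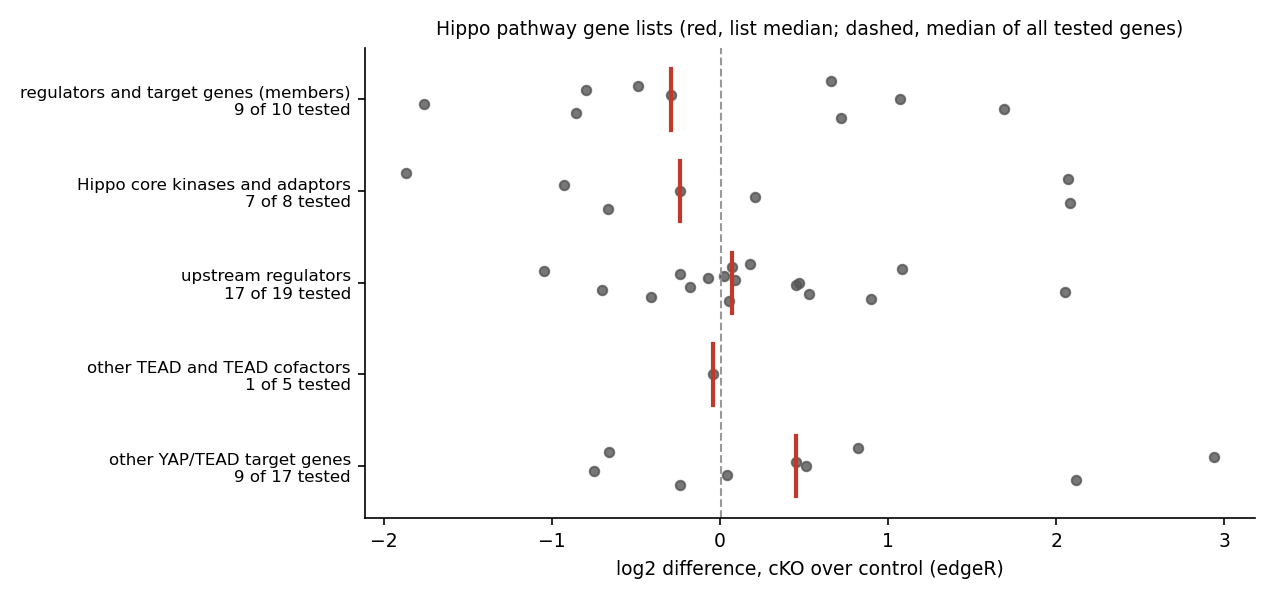
log2 difference of cKO over control (edgeR) for each tested gene of the 10-gene set and of 4 further Hippo pathway lists (points), with list medians as red lines and the median of all genes tested, 0.004, as a dashed line. Points of each list with more than 1 tested gene lie on both sides of 0.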

How the data were processed

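RNA was sequenced from GFP-sorted ependymal cells, 3 cKO and 3 control samples, grouped by title. Per the submitters' processing notes the authors used CASAVA 1.8, cutadapt 1.11 and kallisto 0.42.5; build, annotation and the step from transcripts to genes: not given in the sources used here. Each library's deposited table lists for every gene the authors' estimated count and TPM, per the file headers. Estimated counts were rounded, filtered by filterByExpr (11574 genes left), TMM-scaled and fitted in edgeR 4.0.16 under R 4.3.3 (robust quasi-likelihood test, genotype as the single term), adjusted by Benjamini-Hochberg over all genes. The standard error is the log2 difference over the square root of F. CPM uses TMM scaling. Alternatives used DESeq2 1.42.0 and limma 3.58.1. The direction of large known differences was checked on simulated counts with less spread than these libraries. Recovery of differences at the spread of these libraries is not reported here. Kallisto divides ambiguous reads by estimate, so near-identical paralogs are uncertain. Gene locations are from GENCODE M21 (GRCm38), matched by identifier (99.1% of genes).

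The members and lists were chosen with earlier results of these data known. Named from each list were any genes past the adjusted threshold (there were none), and otherwise the 3 genes highest in TPM and the 2 with the smallest p where genes averaged 5 CPM or more, and from each marker list the highest gene. Marker sums for choroid plexus (604 ± 272 CPM in the cKO, 575 ± 65.8 CPM in the control, led by Folr1) and oligodendrocyte lineage (91.1 ± 32.4 and 114 ± 101, led by Mbp; SD, n = 3 each) each gave an exact permutation p = 0.9. 1 further marker list and 1 upstream gene that this rule picks are not reported here.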

Additional observations from a re-analysis of the deposited data

How the results depend on the processing

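Each tested gene of the set kept its direction, and 0 were called, in all 136 values recomputed over 10 settings and 6 fits without 1 library. The count of genes called over the whole table was 198 with DESeq2 and 2 after a filter at a mean of 50 CPM, which kept F3 alone of the set, and 0 elsewhere. DESeq2 changes both the test and the genes tested (12133 against 11574; 160 of its calls were among the genes that edgeR tested), and the cause of either count was not tested. Ordered by mean CPM instead of TPM, 4 of the 10 genes changed rank (Tead1, Yap1, Amotl1 and Tead2), since CPM is not per length. Among settings other than left-out libraries, Amotl1 ran from 0.57 to 2.72, Yap1 from 0.71 to 1.55, Fjx1 from 0.66 to 1.19 and Tead2 from -1.78 to -0.84. Without 1 library, Ccn1 ran from -2.50 to -1.97. No source used here says whether the replicate numbers pair the samples. Correlations between same-numbered libraries were low (0.008, 0.031 and 0.015). Every cKO library had its largest correlation with the control of its own number, for cKO 1 at 0.008 beside 0.007 with control 3. Values this near 0 cannot show whether the samples are paired. A replicate block in the fit gave 0 called genes, with Ccn1 at -2.27 and F3 at -0.47 (unadjusted p = 0.0451, edgeR adjusted p = 1). At 0 to 20 counts a library, no difference in Tead3 was detectable at this depth.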
